A study of Homo sapiens with 16 samples.

Results

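The comparison described here sets OVCAR3 cells kept for 72 h with 1,25(OH)2D3, active vitamin D hormone, against the same line kept for 24 h with it. Its members are 6 of the 16 arrays of the series, chosen by title: 3 U133A arrays of the 72 h group and 3 of the 24 h group, with no vehicle array in the contrast. OVCAR3 is an established human ovarian carcinoma line, so all groups are 1 line in culture. All cells received ethanol, the solvent, for the same time, and the hormone (0.1 pM in the labels' text, a unit that no other source here bears out and that may be a typing error) was added at staggered times so that the harvest was shared. The groups are 24 h with hormone, 72 h with hormone, 8 h with hormone and ethanol alone, each with 3 biological replicates from 3 independent experiments, and the last pair entered the estimate of the spread, the choice of early genes and the levels given beside the contrast. A further 4 arrays of the older U95 type held 1 sample a time.

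1,25(OH)2D3 binds the vitamin D receptor (VDR), a nuclear receptor that pairs with a retinoid X receptor on DNA and recruits coactivators. CYP24A1, the 24-hydroxylase that breaks the hormone down, is its best known target, and CAMP (cathelicidin, an antimicrobial peptide) and GADD45A (a growth arrest protein) are others. Direct targets can answer within hours, and later changes may pass through other proteins. A comparison of a later with an earlier treated time asks which transcripts were still moving after the first day and which had levelled off.

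Messenger RNA was read as MAS5 signals, brightness values on a linear scale. The median signal lay between 180 and 188 on the 24 h arrays and between 168 and 196 on the 72 h arrays. Correlations over genes on the log2 scale were 0.963 to 0.970 between the times, 0.969 to 0.974 among the 24 h replicates and 0.964 to 0.968 among the 72 h replicates. The median SD within a group was 0.176 at 72 h, 0.148 at 24 h and 0.130 in vehicle on the log2 scale. For ACTB, the 3' control probe set exceeded the 5' one on the log2 scale by 0.173, 0.210 and 0.200 at 24 h and 0.0476, 0.175 and 0.0607 at 72 h. The part of this difference in the results was not tested. Of 39 ovarian carcinoma markers, 35 lay above the filter on low values, with summed signals of 110373 to 121291 at 24 h and 118382 to 125308 at 72 h. Of these 35, 0 were higher and 1 (LCN2) lower past the test described below, beside 0.153% of all tested genes in either direction. At an unadjusted p under 0.05, 8 were higher and 3 lower, beside 5.7% and 6.02% of all tested genes. Among the 35 markers PAX8, a transcription factor of the Mullerian epithelium, had signals of 5862 to 7106 over the 6 arrays. Of the fibroblast, leukocyte and endothelial markers, 6 of 13, 2 of 14 and 2 of 10 lay above the filter, and 0 passed the test between the times. The fibroblast sums were 4618 to 6432 at 24 h and 4218 to 5472 at 72 h, the leukocyte sums 1262 to 1403 and 1206 to 1395, and the endothelial sums 749 to 785 and 603 to 892. The defining leukocyte marker PTPRC had signals of 17.4 to 77.2 and the endothelial CDH5 of 5.46 to 35.7.

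Between 24 and 72 h, 6 genes rose and 5 fell. The genes that rose were CCNA1 (cyclin A1), WNT11 (a secreted Wnt ligand), FLG (filaggrin, a protein of the cornified skin layer), TUBA1A (an alpha tubulin), SLC39A8 (a zinc and manganese importer) and GSTM3 (a glutathione transferase). Those that fell were GPNMB (a glycoprotein of lysosomes and the cell surface), LCN2 (lipocalin 2, which binds bacterial siderophores), FBN2 (fibrillin 2, a microfibril protein), USP48 (a deubiquitinating enzyme) and SIM1 (a bHLH-PAS transcription factor). The test was limma's moderated linear model over all 12 U133A arrays, with Benjamini-Hochberg adjusted p under 0.05. Those counts are 0.0836% and 0.0697% of the 7178 genes tested. At an unadjusted p under 0.05, 409 genes (5.7%) were higher and 432 (6.02%) lower, and the values of the times did not overlap for 492 genes (6.85%) in the higher direction and 501 (6.98%) in the lower. With the replicate number as a block the counts were 14 (0.195%) and 11 (0.153%), with all 11 genes among them. In bulk cultures, fewer cells of a type and less RNA per cell cannot be told apart.

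Most other transcripts were close to where they had been. All differences are on the scale of log2(signal + 15.833), which understates the change of low genes. The median difference over the tested genes was 0.0052, and 5% of genes lay below -0.35 and 5% above 0.34. The 95% interval of the difference lay within 1.5-fold either way for 5296 genes (73.8%), the criterion used here for levelled off. Its median width was 0.61. A fitted change of 2-fold or more was seen in 6 genes upward and 3 downward, and 4 of the 11 genes that passed were of that size. The others were FN1 (1.46), FANCF (1.32), SERPINB7 (1.07), PLEKHO2 (-1.10) and PSMB8 (-1.47), with limma adjusted p between 0.18 and 0.28, and were chosen after their values were seen.

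**Figure D1:**
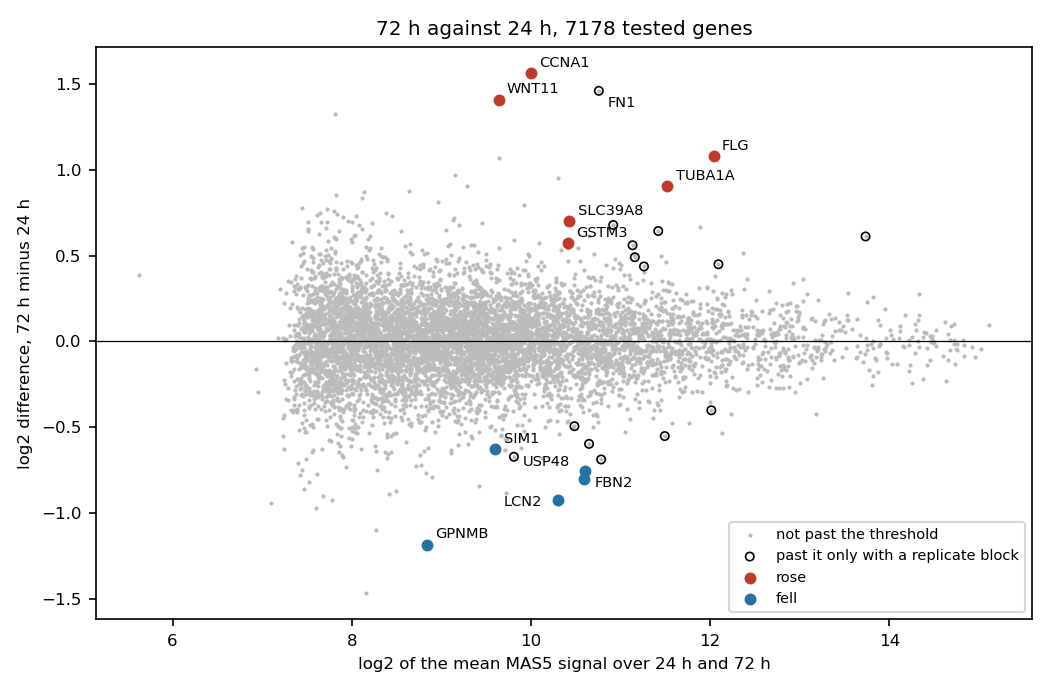
Difference between 72 h and 24 h (vertical axis, log2) against the log2 of the mean MAS5 signal of the 6 arrays (horizontal axis), 1 point a gene for the 7178 genes tested. Red points rose and blue points fell past the threshold, and open circles passed only with a replicate block; most genes lie between -0.35 and 0.34, and CCNA1 and WNT11 stand highest among the 11.

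The stretches just upstream of 4 genes are printed because these are the genes whose calls were steadiest (CCNA1, FLG and FBN2) and the one with the largest fall among the genes that passed (GPNMB). They are the 250 bases before the gene's start, 5' to 3' on the gene's own strand, from RefSeq on GRCh38.p14. They span chr13:36431705-36431954 on the plus strand for CCNA1, chr1:152325240-152325489 on the minus strand for FLG, chr5:128538246-128538495 on the minus strand for FBN2 and chr7:23246525-23246774 on the plus strand for GPNMB. Capitals mark matches to the receptor's hexamer half-sites, which are AGGTCA or AGTTCA or GGTTCA or GGGTCA, searched on both strands with overlaps allowed.
CCNA1: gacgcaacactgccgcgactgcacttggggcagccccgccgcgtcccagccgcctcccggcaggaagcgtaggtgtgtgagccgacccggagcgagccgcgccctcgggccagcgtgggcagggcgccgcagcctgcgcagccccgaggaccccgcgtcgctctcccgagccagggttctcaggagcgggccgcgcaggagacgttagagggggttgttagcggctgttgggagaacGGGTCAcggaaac
FLG: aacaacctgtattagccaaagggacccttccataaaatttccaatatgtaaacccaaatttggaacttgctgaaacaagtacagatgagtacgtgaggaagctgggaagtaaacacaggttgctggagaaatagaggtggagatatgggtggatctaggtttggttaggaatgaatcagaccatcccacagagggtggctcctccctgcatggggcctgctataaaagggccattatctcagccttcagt
FBN2: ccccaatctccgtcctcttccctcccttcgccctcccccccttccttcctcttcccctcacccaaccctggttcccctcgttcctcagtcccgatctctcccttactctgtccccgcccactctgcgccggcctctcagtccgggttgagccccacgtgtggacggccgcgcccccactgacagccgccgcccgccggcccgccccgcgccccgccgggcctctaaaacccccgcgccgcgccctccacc
GPNMB: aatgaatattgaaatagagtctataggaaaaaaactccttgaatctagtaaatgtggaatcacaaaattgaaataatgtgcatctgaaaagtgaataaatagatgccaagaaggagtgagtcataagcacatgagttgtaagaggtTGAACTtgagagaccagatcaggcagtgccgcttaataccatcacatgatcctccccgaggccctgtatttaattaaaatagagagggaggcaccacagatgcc
CCNA1 held GGGTCA with its first base 13 bases before the start, and GPNMB held the hexamer AGTTCA on the other strand, 104 bases before its start. FLG and FBN2 held none. Of the 11 genes, 9 were in the table, with 12 start sites, and WNT11 and USP48 were not. SLC39A8 was the only other with a match, in 1 of its 3 windows, which gave 3 of 12 windows. Over all promoters in the table, 11879 of 35116 windows (33.8%) held one. The paired form, 2 half-sites in the same direction with 3 bases between, was in 0 of the 12 windows and in 23 of all (0.0655%). A match is a run of letters, and its absence says only that these letters are not in this window.

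CCNA1 had the largest rise of the tested genes. Cyclin A1 is the germ line and leukaemia associated form of the A-type cyclins, which bind CDK2. Its signals were 448, 445 and 635 at 24 h and 1741, 1214 and 1650 at 72 h. The lowest 72 h array was above the highest 24 h array, the vehicle values (504, 532 and 700) overlapped the 24 h ones and the 8 h values (346, 339 and 402) lay below them. The difference was 1.56 ± 0.17 (SE, n = 3 a group), or 2.96-fold, with a limma adjusted p of 9.94e-04. The 3 differences by replicate number were 1.92, 1.42 and 1.35. Against vehicle CCNA1 was -0.64 at 8 h, -0.18 at 24 h and 1.38 at 72 h. These last contrasts share arrays with the one tested and are given side by side only.

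WNT11 and FLG had both risen by 24 h and rose further. WNT11 had signals of 44.8, 20.3 and 37.5 in vehicle, 61.4, 47.2 and 60.8 at 8 h, 348, 529 and 412 at 24 h, and 1275, 928 and 1291 at 72 h. Each time after vehicle lay above the one before it, with no overlap between 24 and 72 h. The difference was 1.41 ± 0.23, or 2.66-fold (limma adjusted p = 0.022), from a mean of 430.0 ± 91.8 to 1165 ± 205 (SD, n = 3). FLG had 948, 1176 and 1155 in vehicle, 1519, 1494 and 1376 at 8 h, 2151, 2627 and 3391 at 24 h, and 6075, 4911 and 6121 at 72 h. Here too all 72 h values exceeded all 24 h values. The difference was 1.08 ± 0.14, or 2.11-fold (limma adjusted p = 0.0058). Relative to vehicle the log2 differences at 8, 24 and 72 h were 0.56, 3.17 and 4.58 for WNT11 and 0.42, 1.29 and 2.37 for FLG.

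TUBA1A, SLC39A8 and GSTM3 lay near the vehicle level at 24 h and were higher at 72 h. TUBA1A had 2142, 1591 and 2417 at 24 h and 4282, 3091 and 4138 at 72 h, against 1984 to 2323 in vehicle. The groups did not overlap, and the difference was 0.91 ± 0.14 (1.87-fold, limma adjusted p = 0.019). Its probe set is of the kind that matches several transcripts, so signal of related alpha tubulins cannot be told apart. SLC39A8 had 1155, 1027 and 958 at 24 h and 1816, 1512 and 1804 at 72 h, against 949 to 999 in vehicle. These did not overlap either, and the difference was 0.70 ± 0.11 (1.62-fold, limma adjusted p = 0.019). Its other 3 probe sets differed by 0.27, 0.15 and -1.21, the last near background with mean signals of 38.1 and 7.29. GSTM3 had 1079, 1020 and 1185 at 24 h and 1466, 1686 and 1756 at 72 h, against 1097 to 1234 in vehicle. The difference, 0.57 ± 0.10 (1.49-fold, limma adjusted p = 0.044), was the smallest of the 11.

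FBN2 and LCN2 were below vehicle at 24 h and fell further. FBN2 had 3063, 2409 and 2761 in vehicle, 3139, 2638 and 2882 at 8 h, 1999, 1745 and 2154 at 24 h, and 1058, 1095 and 1205 at 72 h. Every 72 h value was below every 24 h value, and the difference was -0.80 ± 0.11 (0.574-fold, limma adjusted p = 0.0065). A second FBN2 probe set, much dimmer, went from a mean of 82.3 to 40.1, a difference of -0.99. LCN2 had 2790, 2430 and 2436 in vehicle, 2353, 2332 and 2868 at 8 h, 1858, 1886 and 1231 at 24 h, and 924, 1007 and 660 at 72 h. The times did not overlap, with replicate 3 the lowest of both, and the difference was -0.92 ± 0.17 (0.527-fold, limma adjusted p = 0.044). Against vehicle the differences at 24 and 72 h were -0.48 and -1.28 for FBN2 and -0.64 and -1.56 for LCN2.

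GPNMB and SIM1 fell between 24 and 72 h, and USP48 fell to near the vehicle level. GPNMB had 529, 886 and 522 at 24 h and 235, 309 and 261 at 72 h, against 512, 888 and 706 in vehicle. Replicate 2 was the highest in all 3 of these groups, and the times compared did not overlap. The difference was -1.18 ± 0.21 (0.440-fold, limma adjusted p = 0.044), with an adjusted p of 0.0015 with a replicate block. SIM1 had 1089, 1161 and 1074 in vehicle, 987, 823 and 902 at 8 h, 973, 1015 and 848 at 24 h, and 573, 701 and 549 at 72 h. Its 8 h and 24 h values were all below vehicle already, and its 72 h values were below all of them. The difference was -0.63 ± 0.12 (0.647-fold, limma adjusted p = 0.049), and against vehicle SIM1 was -0.23 at 24 h and -0.86 at 72 h. USP48 had 1366, 1288 and 1142 in vehicle, 1853, 2437 and 1605 at 24 h and 1103, 1228 and 1102 at 72 h. Its 24 h arrays stood above both of those groups, and the difference was -0.75 ± 0.14 (0.594-fold, limma adjusted p = 0.044). Its second probe set, with means of 206 and 134, differed by -0.60. Against vehicle USP48 was 0.61 at 24 h and -0.14 at 72 h.

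**Figure D2:**
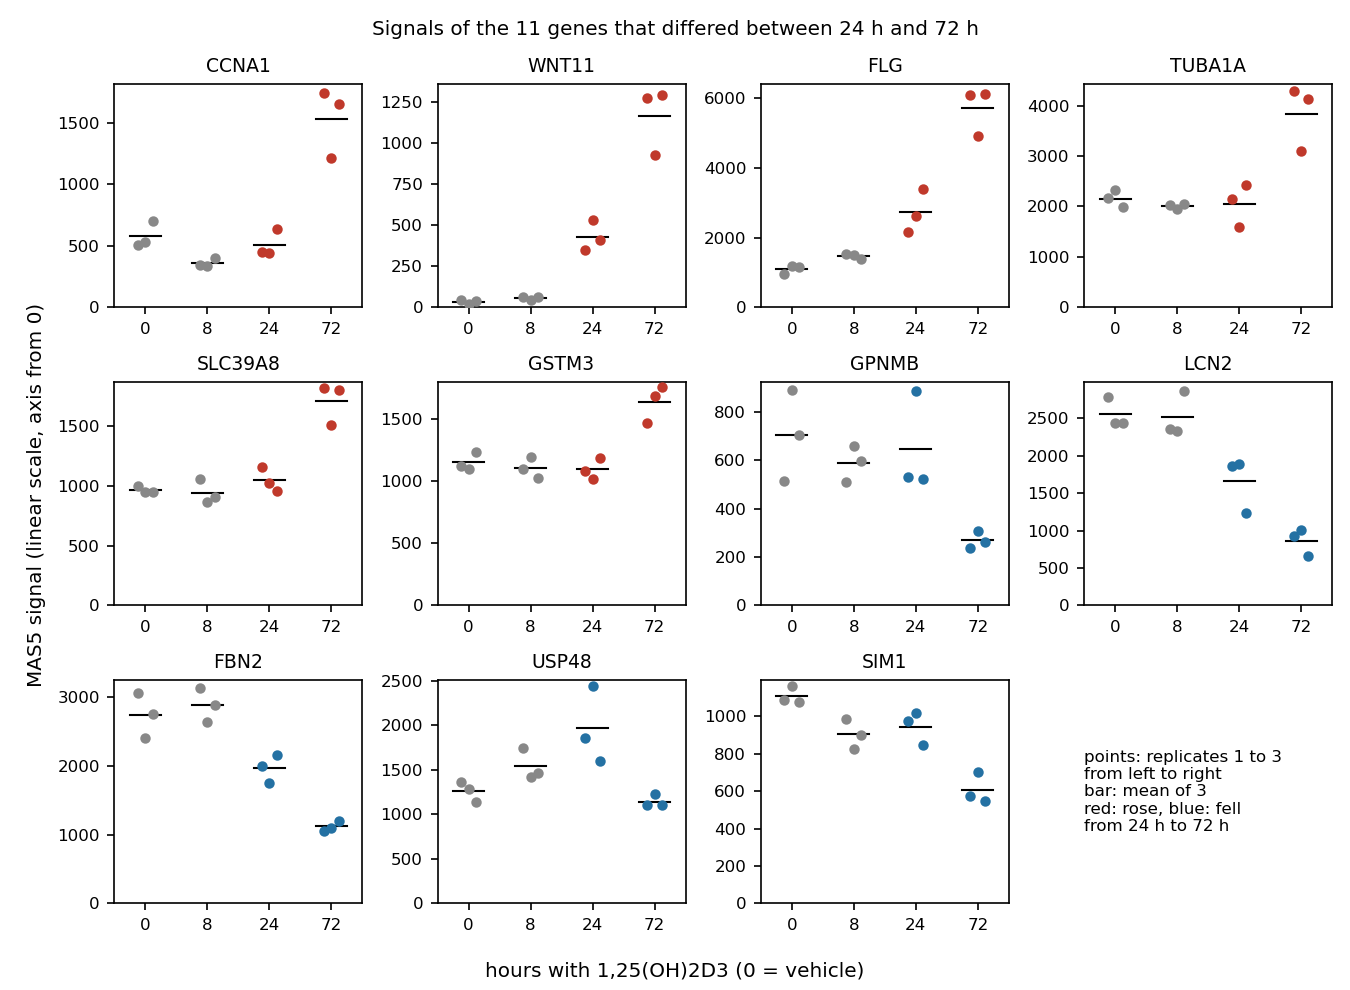
MAS5 signals (vertical axes, linear, from 0) of the 11 genes at 0 (vehicle), 8, 24 and 72 h (horizontal axes), with 1 point for each of 3 replicates in number order and a bar for their mean. Red (rose) and blue (fell) mark the times compared and grey the rest; in every panel the 72 h points lie wholly above or wholly below the 24 h points, and USP48 alone peaks at 24 h.

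How far these calls rest on single arrays and on settings of the analysis differed between the genes. CCNA1 and FLG passed in all 24 alternative analyses, and FBN2 in 23, with an adjusted p of 0.11 when the probe sets of a gene were averaged. WNT11 did not pass without 24 h replicate 1 (limma adjusted p = 0.16) or 3 (0.055), or without 72 h replicate 1 (0.13) or 3 (0.087). The same held with a pseudocount of 1 (0.071) or no filter on low values (0.068). SLC39A8 did not pass without 24 h replicate 2 (0.070) or 3 (0.055), or without 72 h replicate 1 (0.079) or 3 (0.074). Nor did it with only the 6 arrays compared (0.15), median centring (0.075) or no variance trend (0.071). Averaging its probe sets gave -0.02 (adjusted p = 0.97), a turn of its direction. TUBA1A did not pass without 24 h replicate 1 (0.051) or 2 (0.070), or without 72 h replicate 1 (0.10) or 3 (0.074). Nor did TUBA1A with only the 6 arrays compared (0.15), no variance trend (0.093), median centring (0.069) or no filter (0.062). The other 5 were near the threshold, and none passed with only the 6 arrays compared (limma adjusted p of 0.12 to 0.28). Leaving out most of the 12 arrays in turn also ended their calls. Without a vehicle or 8 h array the difference itself is the same, and only the spread estimate and the p-values change. GPNMB passed only without vehicle replicate 1 or 2 or 72 h replicate 2 (adjusted p otherwise up to 0.16), and LCN2 only without 24 h replicate 3 or 72 h replicate 2 (otherwise up to 0.22). GSTM3 passed only without 72 h replicate 1 (otherwise up to 0.21), USP48 only without 24 h replicate 3 (up to 0.16) and SIM1 only without 72 h replicate 2 (up to 0.22).

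Just outside the threshold was WNT5A, another secreted Wnt ligand. Its signals were 1874, 2131 and 1805 at 24 h and 1205, 1272 and 1343 at 72 h, without overlap and below the 1654 to 1979 of vehicle. The difference was -0.60 ± 0.11, with a limma adjusted p of 0.062 and of 0.027 with a replicate block. A second probe set gave -0.58.

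The replicate block, which compares each 72 h array with the 24 h array of the same number, added 14 genes. These were chosen after their values were seen. FN1 (fibronectin, a matrix glycoprotein) differed most, with 1157, 556 and 888 at 24 h and 4216, 1280 and 2288 at 72 h. Replicate 1 was highest and replicate 2 lowest at both times, and the differences by number were 1.85, 1.18 and 1.35. The adjusted p was 0.0038 with the block and 0.28 without it. FST (follistatin, which binds activin) had 1487, 1548 and 1375 at 24 h and 3035, 2033 and 2130 at 72 h, a difference of 0.68 (adjusted p = 0.027 with the block, 0.10 without). S100A10, a partner of annexin A2, had 10251, 9403 and 12629 at 24 h and 15067, 14453 and 19994 at 72 h, a difference of 0.61 (0.027 and 0.13). Also higher with the block were CRABP2 (0.64), a retinoic acid carrier, the lysosomal protease CTSC (0.56), the adenylate kinase AK4 (0.49), phosphoglucomutase PGM1 (0.45) and the proton pump subunit ATP6V0C (0.44). Lower were LGALS1 (-0.69), a galectin, PXDC1 (-0.67), WNT5A, the mucin glycosyltransferase GALNT3 (-0.55), the mRNA decay factor ZFP36L2 (-0.49) and the membrane protein TM4SF1 (-0.40). CRABP2 and LGALS1 overlapped between the times on their signals.

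The U95 arrays, which had no part in the calls, hold 1 sample at each time, so their values have no replicate check. Of the 11 genes, 9 passed the filters of both array types. SIM1 did not on U95 (signals of 28.7 and 58.4), and USP48 was not among the U95 genes. The U95 log2 ratio of 72 h to 24 h was 0.92 for FLG (signals of 549 and 1049), 0.71 for CCNA1 (161 and 271) and 0.63 for TUBA1A. It was smaller for WNT11 (0.21, from 855 to 994) and SLC39A8 (0.16) and -0.03 for GSTM3. WNT11 differed between the array types in vehicle also, with a U95 signal of 550.0. For the genes that fell it was -0.72 for LCN2, -0.71 for GPNMB and -0.52 for FBN2, and WNT5A had -0.44. So 5 of the 6 higher genes were positive (median 0.42) and 0 of the 3 lower ones (median -0.71), beside 1933 of all 4167 genes (46.4%, median -0.02). Among genes with an unadjusted p under 0.05 on U133A, 166 of 252 higher ones (65.9%, median 0.12) and 81 of 254 lower ones (31.9%, median -0.11) were positive.

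**Figure D3:**
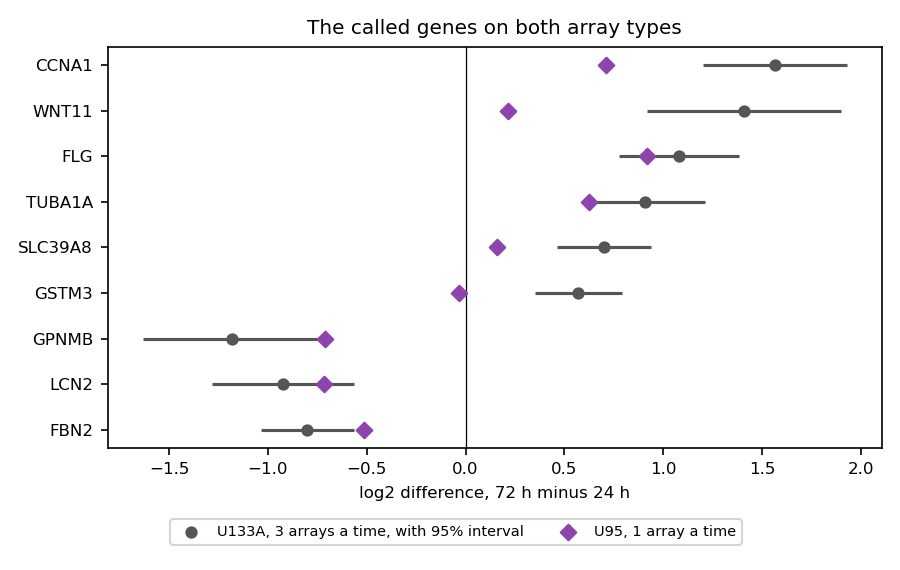
Log2 difference between 72 h and 24 h (horizontal axis) of the 9 genes that passed the filters of both array types. Grey points and lines are the U133A estimate and its 95% interval (3 arrays a time), purple diamonds the U95 ratio (1 array a time); the diamonds of FLG, TUBA1A and LCN2 lie inside the U133A interval, and those of WNT11, SLC39A8 and GSTM3 lie near 0.

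The genes that had changed by 8 h against vehicle can be followed in a contrast that shares no array with that one. The spread behind the choice and behind the intervals was, however, estimated from all 12 arrays in both cases, so the choice was not independent of the 24 h and 72 h arrays. At 8 h against vehicle, 51 genes were higher (0.711%) and 4 lower (0.0557%) by limma at an adjusted p under 0.05. From 24 to 72 h, 0 of these 55 passed the test, in either direction and with or without the replicate block. Without the block 0.153% of all tested genes passed. At an unadjusted p under 0.05, 8 of the 55 were higher and 3 lower, beside 5.7% and 6.02% of all tested genes. For 40 of the 55 (72.7%) the interval lay within 1.5-fold, beside 73.8% of all tested genes. Levelled in this sense does not mean unchanged, as some of these intervals excluded 0. Those of CHRDL1 (0.37), COL4A2 (0.30) and ABLIM1 (0.26) lay above 0. Those of WSB1 (-0.29), GUCY1B1 (-0.28) and PEA15 (-0.27) lay below it. The differences of the 55 ran from -0.41 to 0.58, with a median of 0.02. The other 15 had intervals that reached beyond 1.5-fold and did not pass the test, so they were called neither level nor moving. Among these 15, the intervals of RGCC, CALCB, KLK6, SERPINB1 and TRIM8 lay wholly above 0, and none lay wholly below.

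Among the levelled genes of largest early change were several regulators. GATA6, a transcription factor, had 258, 264 and 347 at 24 h and 368, 285 and 316 at 72 h, against 58.5, 71.7 and 88.2 in vehicle. The times overlapped, and the difference was 0.15, with a 95% interval of -0.25 to 0.56. DUSP10, a phosphatase of JNK and p38, had 1204, 1266 and 1118 at 24 h and 998, 994 and 1122 at 72 h, against 229, 258 and 337 in vehicle, a difference of -0.20. WT1, a transcription factor of serous ovarian tumours, had 4076, 4401 and 4148 at 24 h and 4268, 4579 and 4212 at 72 h, against 1958 to 2264 in vehicle. Its difference was 0.05, with a 95% interval of -0.13 to 0.22. GADD45A, used by the submitters to check that the cells responded, had 1846, 1516 and 2038 at 24 h and 2220, 1631 and 1976 at 72 h, against 403 to 571 in vehicle. The times overlapped and the difference was 0.11 (-0.21 to 0.42). The other 8 were TSKU, a secreted proteoglycan (-0.11), KCTD12, a subunit of the GABA-B receptor (0.10), the calcium sensor HPCAL1 (-0.06), the adaptor DOK5 (0.02), the cofactor LBH (0.14), GNE of sialic acid synthesis (0.00), the glycine cleavage enzyme GLDC (-0.10) and the lysosomal fucosidase FUCA1 (-0.09).

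CYP24A1 and CAMP were among the 15 that could not be called level. CYP24A1 rose from 56.4, 84.1 and 247 in vehicle to 6045, 6615 and 5895 at 8 h, and had 8141, 5177 and 8671 at 24 h and 7486, 8808 and 5995 at 72 h. The later times overlapped wholly, and the difference was 0.04 with a 95% interval of -0.66 to 0.74 (limma adjusted p = 0.98). CAMP had 1008, 873 and 807 at 24 h and 1262, 1029 and 1124 at 72 h, against 26.7 to 33.2 in vehicle. All 72 h values were above all 24 h values, but the difference was 0.34 (-0.08 to 0.76, limma adjusted p = 0.54). RGCC, a cell cycle regulator that had dropped at 8 h, had 1438, 1179 and 1446 in vehicle, 149, 120 and 248 at 24 h and 266, 233 and 267 at 72 h. Its difference was 0.58 (0.16 to 1.01, limma adjusted p = 0.29), the highest among the 55, with 1 of 3 24 h arrays between the 72 h values. KLK6, a secreted serine protease, had 5173, 3904 and 5185 at 24 h and 6351, 4963 and 7095 at 72 h, overlapping, a difference of 0.36. The neuropeptide gene CALCB (0.48) and the cyclic AMP sensor RAPGEF3 (-0.41), chosen after their values were seen, were the next highest and the lowest.

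**Figure D4:**
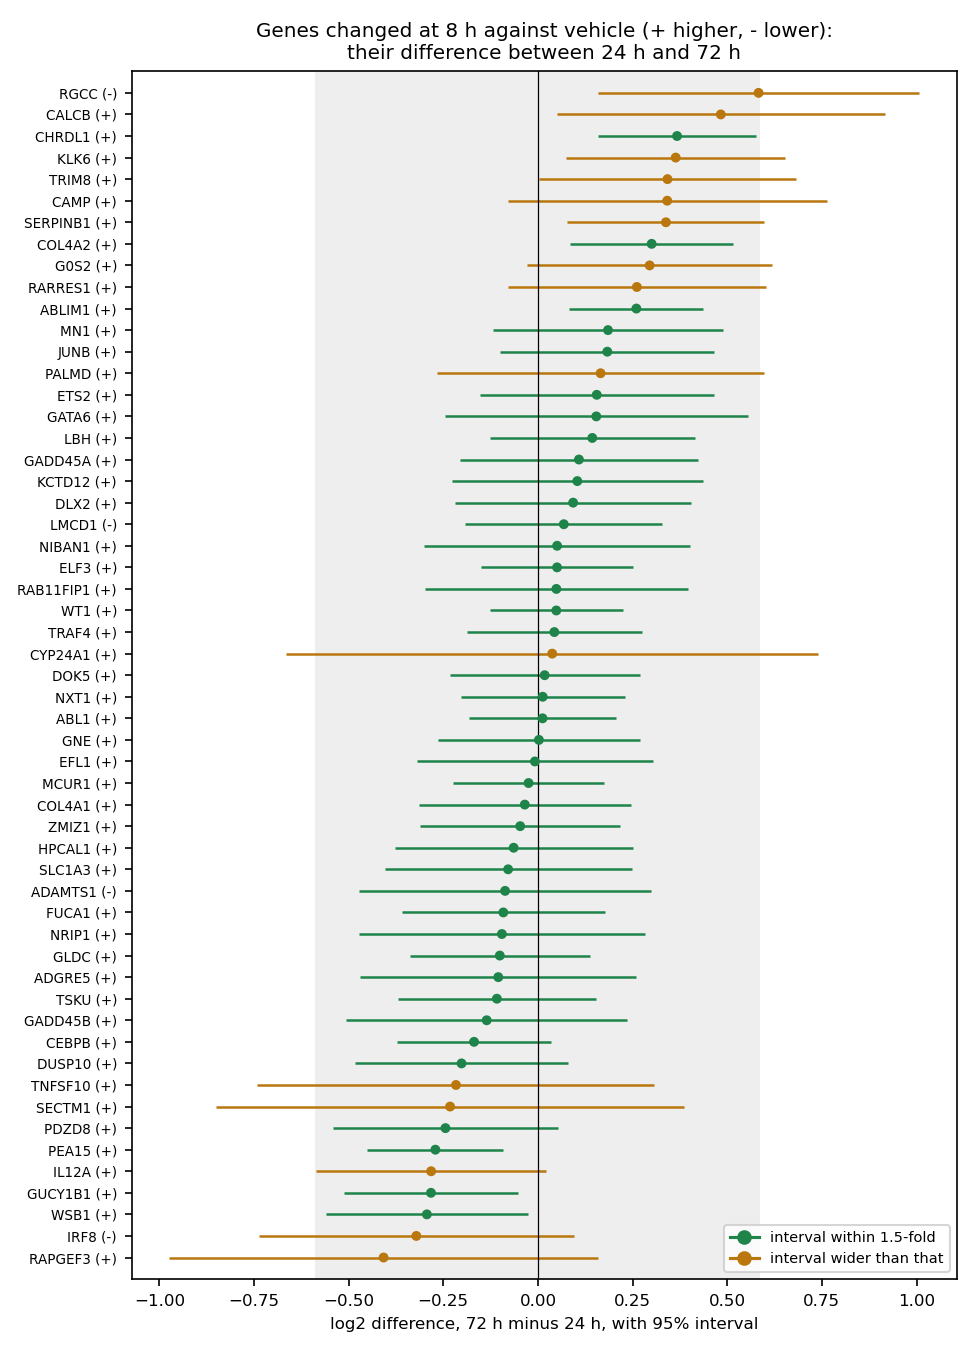
Log2 difference between 72 h and 24 h (horizontal axis) with its 95% interval for the 55 genes past the threshold at 8 h against vehicle, 1 line a gene, + for higher and - for lower at 8 h. The grey band is 1.5-fold either way; 40 intervals (green) lie inside it and 15 (orange) reach outside, among them that of CYP24A1, which is centred near 0.

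The hormone's own machinery gave no call. Of 16 tested genes that make, degrade or bind the hormone or serve its receptor, 0 passed in either direction. Of the 16, 9 were positive and the median was 0.03. Over all genes 0.153% passed, 51.1% were positive and the median was 0.0052. VDR had 434, 473 and 513 at 24 h and 342, 304 and 364 at 72 h, against 348 to 467 in vehicle. The times did not overlap, but the difference of -0.47 did not pass (limma adjusted p = 0.27), and its other probe sets, all dimmer, gave -0.08, -0.36 and 0.41. On U95 the VDR ratio was -0.43. The coactivator NCOA2 had -0.40 and the partner receptor RXRA 0.29, neither past the test. Of 28 tested VDR targets, 0 passed, 14 were positive and the median was 0.01.

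The counts of this paragraph stand beside 0.153% of all tested genes past the threshold, 51.1% positive and a median of 0.0052. Of 30 tested Wnt genes, WNT11 rose and 0 fell, with WNT5A added among those lower by the block, and 11 were positive with a median of -0.11. DKK3, a secreted Wnt antagonist, had 0.43 and APC, of the beta-catenin destruction complex, -0.42, neither past the test. In the squamous and keratin list, FLG rose and 0 of 26 fell, with 17 positive and a median of 0.10. S100A8, a calcium-binding alarmin, went from 238, 191 and 128 to 62.1, 92.4 and 110 without overlap, a difference of -0.94 that did not pass (limma adjusted p = 0.17). The keratins KRT4 (-0.55) and KRT23 (-0.44) did not pass either. All 5 tested clade B serpins, protease inhibitors of epithelia, were positive (median 0.33), and 0 passed. SERPINB7 was highest, with 646, 422 and 483 at 24 h and 1007, 1165 and 1084 at 72 h, a difference of 1.07 without overlap (limma adjusted p = 0.18). With only the 6 arrays compared in the fit, its limma adjusted p was 0.045. Of 8 tested kallikreins, secreted serine proteases, 7 were positive (median 0.23) and 0 passed.

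Genes of defence and inflammation included 1 call, LCN2, which stands in the first 2 lists below, beside 0.153% past the threshold and 51.1% positive over all genes. Of 15 tested antimicrobial and mucosal genes, 1 fell and 0 rose, with 5 positive and a median of -0.10. Of 32 tested NF-kappaB and cytokine genes, 1 fell and 0 rose, while 25 were positive and the median was 0.15. CXCL1, a neutrophil chemokine, had 2202, 2555 and 2500 at 24 h and 4199, 2667 and 3316 at 72 h, below the 4021 to 4952 of vehicle for all but 1 array, and its difference of 0.46 did not pass. CCL20, another chemokine, had 35.1, 49.5 and 28 at 24 h and 115, 34.6 and 33.2 at 72 h, against 740 to 1056 in vehicle. Its times overlapped, with a difference of 0.39 (limma adjusted p = 0.72). Of 45 tested interferon response genes 0 passed, 21 were positive and the median was -0.01, with differences from -1.47 to 0.36. At an unadjusted p under 0.05 by limma, 3 of them were higher and 7 lower, beside 5.7% and 6.02% of all genes. IFITM1, an antiviral membrane protein, had 564, 736 and 349 at 24 h and 227, 415 and 322 at 72 h, overlapping, a difference of -0.72. Of 15 tested death receptor genes 0 passed and 10 were positive (median 0.21).

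Of the 3 cell cycle lists, which do not hold CCNA1, no member passed. Over all tested genes 0.153% passed, 73.8% had levelled and 51.1% were positive. Of 61 tested mitosis genes 0 passed and 50 had levelled (82.0%), with 40 positive and a median of 0.07. RACGAP1, a cytokinesis protein, had 1677, 1632 and 1668 at 24 h and 1215, 1428 and 1348 at 72 h, a difference of -0.32 without overlap that did not pass. PLK1, a mitotic kinase, had 0.48. Of 54 tested DNA replication genes 0 passed, 40 had levelled (74.1%), 26 were positive and the median was -0.02. The DNA replication factor MCM10 had 0.42 and the ribonucleotide reductase subunit RRM2 0.34. Of 32 tested G1 regulators 0 passed, 23 had levelled (71.9%), 17 were positive and the median was 0.01 (-0.001 and 15 positive with median centring), with the antiproliferative BTG1 at 0.54 and the cyclin CCNE2 at 0.35.

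Glycolysis and hypoxia genes leaned upward by small amounts. Of 38 tested, 33 were positive (32 under median centring or quantile normalization) and the median was 0.17, beside 51.1% and 0.0052 over all genes, but 0 passed. Over all genes 0.153% passed. At an unadjusted p under 0.05, 7 of the 38 were higher and 0 lower, beside 5.7% and 6.02% of all genes. TPI1, triose phosphate isomerase, had 11180, 10768 and 10206 at 24 h and 14049, 13023 and 12047 at 72 h. The times did not overlap, and the difference was 0.28. PFKP, a phosphofructokinase, had 2220, 2619 and 2614 at 24 h and 3263, 3376 and 2876 at 72 h, also without overlap, a difference of 0.35. The carbonic anhydrase CA12 had 0.40 and the aldolase ALDOC 0.55.

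Of 33 tested mesenchymal and matrix genes FBN2 fell and 0 rose, with FN1 added by the block, and 20 were positive (median 0.08), beside 51.1% positive and 0.153% called over all genes. CCN2, a matricellular protein, had 212, 327 and 630 at 24 h and 659, 482 and 1111 at 72 h, overlapping, a difference of 0.97, and the sheddase ADAM10 had -0.48 (limma adjusted p = 0.14). Of 40 tested genes of TGF-beta, activin and BMP signalling 0 passed, with FST added by the block, and 23 were positive (median 0.02). The BMP antagonist GREM1 had 0.75, and the receptors TGFBR2 and TGFBR3 had -0.46 and -0.61. Of 44 tested cytoskeletal regulators TUBA1A rose and 0 fell, with 30 positive and a median of 0.12. FSCN1 (fascin, an actin bundler) had 199, 138 and 138 at 24 h and 274, 289 and 324 at 72 h, a difference of 0.85 without overlap that did not pass (limma adjusted p = 0.12). FAM107A, an actin-binding protein, had -0.78 (186, 214 and 260 against 144, 138 and 87.3).

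Intervals lay within 1.5-fold for all 46 tested ribosomal protein genes, 55 of 56 tested oxidative phosphorylation genes and all 28 tested members of the proteasome list. Of all genes 73.8% lay within that range, and 0 passed in each of these lists. The proteasome list does not hold PSMB8, a proteasome subunit named above for a fall that did not pass the test. Of 42 tested oxidative stress genes GSTM3 rose and 0 fell, with 21 positive and a median at 0.01 or nearer 0. Of 17 tested calcium and mineral transport genes 0 passed and 6 were positive (median -0.06). Of 42 lists, 8 had a member that passed and 34 had none.

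**Figure D5:**
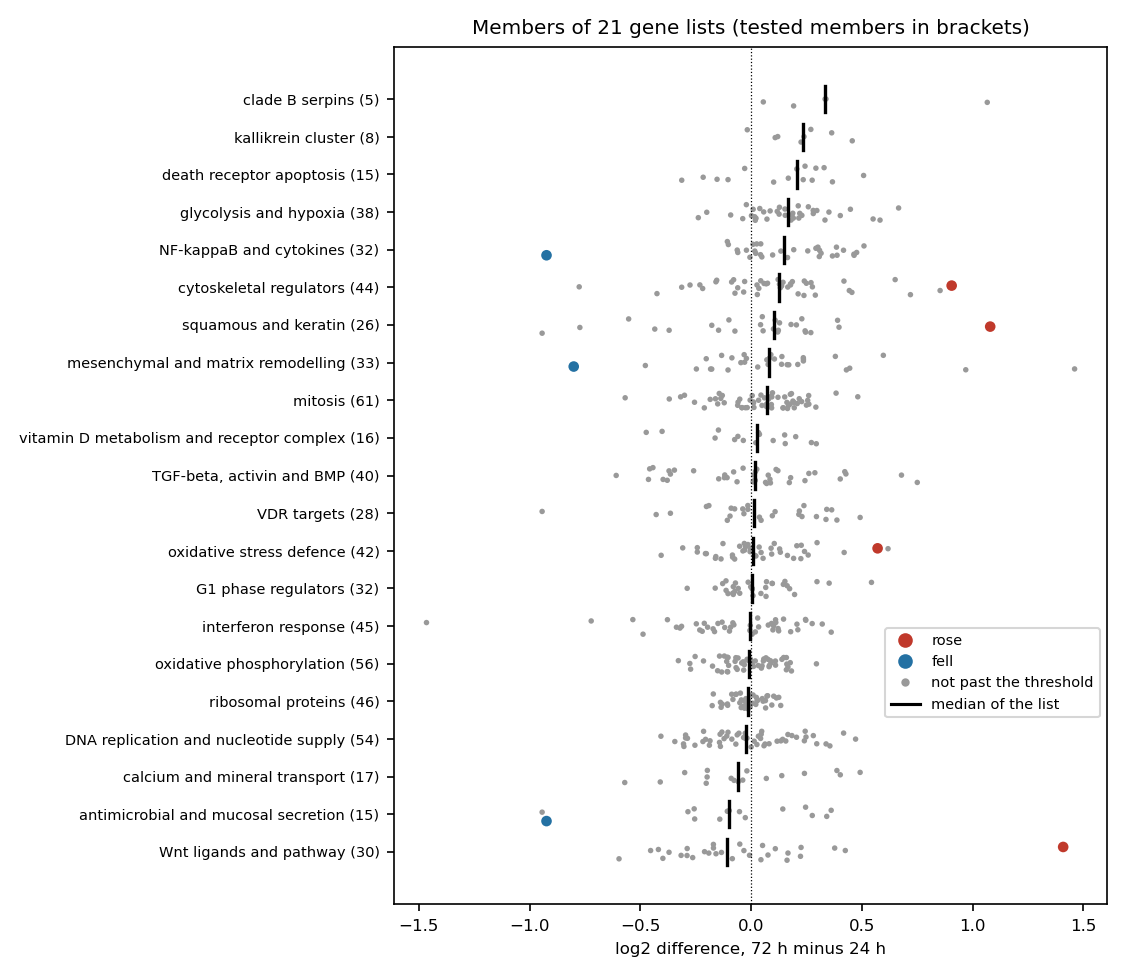
Log2 difference between 72 h and 24 h (horizontal axis) of the tested members of 21 gene lists, 1 grey point a gene, with a black bar for each list's median and red or blue points for members that rose or fell past the threshold. List medians lie between -0.11 (Wnt ligands and pathway) and 0.33 (clade B serpins), and ribosomal proteins spread least.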

How the data were processed

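Total RNA of OVCAR3 cells was hybridised to 12 U133A and 4 U95 arrays, each matched to its label by title, and 0 columns were left unmatched. The authors deposited 1 intensity for each probe set. The submitters' processing notes name MAS5, and its version is not given in the sources used here. The 2% trimmed mean was 500.2 on every U133A array, so no further scaling was applied.

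Of 22283 U133A probe sets, 19071 had 1 gene in the platform annotation, 1043 several and 2169 were not listed; names were updated through RefSeq on GRCh38.p14. In R 4.3.3 (package data.table, version 1.17.8), values were transformed as log2(signal + 15.833), with the 10th percentile of the U133A table, 15.833, as the pseudocount (13.87 for U95). The probe set of highest mean stood for each of 11963 genes, and the 7178 genes with a mean at or above the 40th percentile were tested. limma 3.58.1 (eBayes with trend) was fitted to all 12 U133A arrays, with 8 residual degrees of freedom, and the contrast of 72 h with 24 h was adjusted by Benjamini-Hochberg at a threshold of 0.05. Simulated data of the same 7178 genes were drawn without a replicate structure, with all sizes of change present together. The fit found 25 of 50 genes changed by 0.5 on the log2 scale and 40 of 50 changed by 1. It found 48 of 50 changed by 1.5 and 50 of 50 changed by 2, with 7 false calls. So many changed genes ease the adjusted threshold, and only 11 genes passed in the real contrast. The share found when few genes change may be smaller and was not simulated. No count depth exists for arrays, and their number limits the precision.

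The replicate numbers appear to pair the arrays: deviations from the group means of same-numbered 24 h and 72 h arrays correlated at 0.103, 0.187 and 0.146, and those of differently numbered arrays at -0.166 to 0.015. Deviations within a group cancel out for each gene, so positive values of the first kind bring low values of the second, which are not separate evidence. The labels state 3 independent experiments without saying that a number marks one.

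Named genes were up to 15 of largest rise and 15 of largest fall among those past the threshold without overlap, the 12 levelled genes of largest change at 8 h, up to 4 members of lowest p of each list described, and CYP24A1, CAMP, GADD45A, VDR, WNT11, FLG, RGCC and CCL20. Members, lists, tests and alternatives were chosen with earlier results of these data known. The alternatives changed the pseudocount, the filter, the normalization, the rule for probe sets, the arrays in the fit, the variance trend, array weights (statmod 1.5.0), the replicate block and each array in turn.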

Additional observations from a re-analysis of the deposited data

How the results depend on the processing

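The number of genes higher at 72 h, 6, was 3 with no filter on low values, with median centring or without a variance trend, and ran from 2 to 5 when 1 of the 12 arrays was left out. It was lowest without 72 h replicate 3 (2), and 3 without 24 h replicate 2 or 3. The number lower, 5, was 1 with no filter, quantile normalization, averaged probe sets, only the 6 arrays compared or no variance trend, and 2 with median centring, every probe set on its own or array weights. Leaving out 1 array gave 1 to 8: 1 without replicate 3 of vehicle, without replicate 1 or 2 of 8 h and likewise of 24 h, 2 without replicate 1 or 2 of vehicle, replicate 3 of 8 h or replicate 3 of 72 h, 3 without 24 h replicate 3 and 8 without 72 h replicate 2. With the replicate block the numbers were 14 higher and 11 lower. Under the block 61 of the early genes had levelled off, in place of 40, since more genes then passed at 8 h, and 62 did with array weights. Leaving out arrays gave 28 to 42. Of early genes still moving, in place of 0, there was 1 with a pseudocount 4 times larger (FAM107A), 1 with averaged probe sets (FAM107A) and 1 with the block (CCNA1), and 0 in every analysis without 1 array. Over all genes, 5296 of 7178 had levelled off, and 4586 to 5275 without 1 array. With every probe set on its own 8375 of 13329 features had, and with no filter on low values 5679 of 11963 genes. The share was thus lower in both of these settings. SLC39A8 turned to -0.0229 with averaged probe sets. Of 2298 values of 97 named genes over 24 alternatives, 2110 counted as the same. For a called gene this meant the same direction and call. For a gene without a call it meant no call and a move smaller than its SD at 72 h, whatever its sign. Of the rest, 112 lost the call, 8 gained it, 67 without a call moved by more than that SD and 1, of the called gene SLC39A8, was reversed. Another scaling moved the median of all genes by under 0.01. Where not said, the cause was not tested. Dim genes are limited by signal near background.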

Other observations

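Genes can also be chosen on the U95 arrays, which share no array with the U133A contrast; this choice was made after seeing the data. Of the genes that passed the filters of both array types, 55 were at least 2-fold above vehicle on U95 at 24 h. On U133A, 36 of these were positive from 24 to 72 h, with a median of 0.05, and 35 (63.6%) had intervals within 1.5-fold, beside 78.7% of all such genes. Of the 35 genes at least 2-fold below vehicle on U95 at 24 h, 13 were positive, with a median of -0.03, and 20 (57.1%) had such intervals. In each set 1 gene passed on U133A, in the direction of its earlier change. The choice rests on 1 U95 array a time, and some chosen genes had not changed alike on U133A at 24 h. Against vehicle RPS16 had -3.56 on U95 and 0.20 on U133A, and PKM 3.08 and 0.25. Others had, such as DUSP10 with 3.43 and 2.08. An interval within 1.5-fold in these sets therefore need not follow an earlier change on U133A.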
